A study of Mus musculus with 12 samples.

Results

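Far intergenic regions are taken here as the stretches of open chromatin that overlapped no protein-coding gene body, lay more than 50 kb from every protein-coding start site in the mm9 annotation, and reached a level of 3.6 CPM (reads scaled to the library total) in at least 3 of the 12 ATAC-seq libraries of the series. There were 12787 such regions, 18.3% of the 69957 regions that reached this level, out of 118680 deposited. A further 13997 regions met the distance rule and stayed under the level. The rule used position and overall level and no difference between groups. It did admit a region on 3 libraries, however, so a region that was high in a single group could enter on that group alone.

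The libraries came from YFP+ regulatory T cells (Treg) of spleen. The study's purification methods name both spleen and lymph node as the source of Treg, and its ATAC-seq methods name no organ. Wild type (WT) cells were from Foxp3-YFP-Cre mice. The conditional knockout (Ikzf1-cko) cells were from the Ikzf1-fl-Foxp3-YFP-Cre strain. Both genotypes carried the Foxp3-YFP-Cre allele, in which Foxp3 drives the recombinase, so Ikzf1 is deleted only in cells that have switched Foxp3 on. Each genotype was profiled directly ex vivo and after stimulation in vitro, which the study's methods describe as 4 h on plate-bound antibodies against CD3 and CD28, with 3 biological replicates in each of the 4 groups. The age of the animals is not given in the sources used here. ATAC-seq marks DNA that the Tn5 transposase can reach, and each value is a count of reads on a region or that count per kilobase of region and scaled to the library's region reads (FPKM).

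Start sites of Foxp3, Il2ra, Cd3e and Cd4 held reads in every library, which is compatible with the Treg label and does not settle it. The region over the Foxp3 start site ranged from 8.89 to 18 FPKM over the 12 libraries, that of Il2ra from 19.0 to 27.9, that of Cd3e from 15.5 to 27.3 and that of Cd4 from 12.4 to 24.8. No region lay over an annotated start site of Ikzf2. Of 9 markers of other cells reported here, 6 had no region over a start site (Pax5, Cd79a, Csf1r, Lyz2, Ncr1 and Hbb-b1), while Cd8a reached 1.67 to 10.8, Cd14 5.38 to 9.69 and Gata1 3.85 to 9.46 FPKM. The range of Foxp3 overlapped those of Cd8a, Cd14 and Gata1. The deleted part of Ikzf1 is not named in the sources used here, and all 31 regions over the gene held reads in Ikzf1-cko libraries (2.07 to 52.8 FPKM), so Ikzf1 itself did not check the genotype labels. Each library held 4808916 to 15355521 reads on regions, and all 6 WT libraries (at most 8596567) were shallower than all 6 Ikzf1-cko libraries (at least 9221901). Over the far intergenic regions, FPKM of replicates correlated with a Spearman coefficient of 0.887 to 0.949 in Ikzf1-cko ex vivo, 0.865 to 0.906 in WT ex vivo, 0.895 to 0.922 in Ikzf1-cko stimulated and 0.721 to 0.786 in WT stimulated Treg, so the stimulated WT libraries were the least alike.

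Distal open chromatin is where most enhancers lie. Enhancers are stretches of DNA bound by transcription factors that act on promoters over long distances, often across gene-poor stretches called gene deserts. Ikaros, the zinc finger protein encoded by Ikzf1, binds a GGGAA core and recruits chromatin remodelling and deacetylase complexes. AP-1 and BATF proteins, which T cell receptor signals induce, bind the palindrome TGANTCA, forkhead proteins such as Foxp3 and Foxo1 bind GTAAACA, Runx proteins TGTGGT, Ets proteins CAGGAAG and Tcf1 and Lef1 CTTTGAT. The protein CTCF binds a longer core and marks boundaries of chromatin loops.

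The central 300 bases of 11 regions on which the results turn are given here, from the plus strand of mm9. Matches to the motifs named above on either strand are in capitals, and overlapping matches run together. The first pair are the regions of largest gain in Ikzf1-cko Treg ex vivo, at chr13:112770451-112770750 upstream of Map3k1 and chrX:163557274-163557573 downstream of Tmsb4x. Their matches were to the Ikaros core alone.

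OCR_32818: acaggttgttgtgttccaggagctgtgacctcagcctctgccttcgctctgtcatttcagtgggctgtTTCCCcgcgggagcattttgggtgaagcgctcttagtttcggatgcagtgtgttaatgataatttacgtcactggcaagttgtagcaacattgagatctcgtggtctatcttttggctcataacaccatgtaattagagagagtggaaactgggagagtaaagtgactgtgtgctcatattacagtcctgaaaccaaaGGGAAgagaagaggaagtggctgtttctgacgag

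OCR_118548: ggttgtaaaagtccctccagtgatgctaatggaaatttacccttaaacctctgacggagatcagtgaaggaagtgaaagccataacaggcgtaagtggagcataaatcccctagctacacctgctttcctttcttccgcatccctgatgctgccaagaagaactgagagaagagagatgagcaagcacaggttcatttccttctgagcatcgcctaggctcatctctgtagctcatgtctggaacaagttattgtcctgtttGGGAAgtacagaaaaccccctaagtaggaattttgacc

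The next 3 lie in the deserts around Ets1 (chr9:32708933-32709232), Satb1 (chr17:52316855-52317154) and Tox (chr4:7461578-7461877), and were lower in Ikzf1-cko Treg ex vivo. The Ets1 window held a forkhead, an Ets and an Ikaros motif, the Tox window a Runx, a Tcf/Lef and an AP-1 motif, and the Satb1 window none of the motifs.

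OCR_112458: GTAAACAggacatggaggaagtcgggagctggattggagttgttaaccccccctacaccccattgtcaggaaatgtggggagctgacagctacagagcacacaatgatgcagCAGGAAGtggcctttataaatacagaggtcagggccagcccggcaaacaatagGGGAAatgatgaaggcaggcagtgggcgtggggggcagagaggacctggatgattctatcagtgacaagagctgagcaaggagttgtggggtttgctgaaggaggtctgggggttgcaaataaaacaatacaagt

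OCR_51132: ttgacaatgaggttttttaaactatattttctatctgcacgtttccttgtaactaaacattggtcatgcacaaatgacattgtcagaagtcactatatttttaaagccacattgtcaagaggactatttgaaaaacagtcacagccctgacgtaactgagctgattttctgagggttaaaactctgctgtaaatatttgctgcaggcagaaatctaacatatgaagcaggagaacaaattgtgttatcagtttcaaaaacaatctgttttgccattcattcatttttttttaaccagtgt

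OCR_76910: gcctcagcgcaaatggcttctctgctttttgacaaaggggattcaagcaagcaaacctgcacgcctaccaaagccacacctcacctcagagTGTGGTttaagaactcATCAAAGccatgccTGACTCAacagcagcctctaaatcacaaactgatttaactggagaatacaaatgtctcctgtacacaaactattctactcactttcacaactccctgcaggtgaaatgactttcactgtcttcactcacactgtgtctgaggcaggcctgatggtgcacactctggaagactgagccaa

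OCR_16556 (chr11:14042623-14042922) lies on the chromosome of Ikzf1 and was almost without reads in every Ikzf1-cko library.

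OCR_16556: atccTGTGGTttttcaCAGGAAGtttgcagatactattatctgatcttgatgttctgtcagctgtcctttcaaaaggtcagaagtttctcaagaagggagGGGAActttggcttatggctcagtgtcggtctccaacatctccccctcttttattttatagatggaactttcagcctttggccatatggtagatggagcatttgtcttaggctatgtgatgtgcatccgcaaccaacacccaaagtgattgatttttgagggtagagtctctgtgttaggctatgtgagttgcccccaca

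The regions near Cd47 (chr16:49982440-49982739), Bach2 (chr4:32213746-32214045) and Ctla4 (chr1:60890458-60890757) were higher in stimulated Ikzf1-cko than in stimulated WT Treg. Each of these windows held the AP-1 motif, and the Ctla4 window held it at 2 places. The other named regions higher in stimulated Ikzf1-cko Treg were mixed. Those near Gm17384 and Tnfsf11 held it, and those near Map3k1, Tmsb4x, Il6st, Cd44 and Ikzf2 did not.

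OCR_46101: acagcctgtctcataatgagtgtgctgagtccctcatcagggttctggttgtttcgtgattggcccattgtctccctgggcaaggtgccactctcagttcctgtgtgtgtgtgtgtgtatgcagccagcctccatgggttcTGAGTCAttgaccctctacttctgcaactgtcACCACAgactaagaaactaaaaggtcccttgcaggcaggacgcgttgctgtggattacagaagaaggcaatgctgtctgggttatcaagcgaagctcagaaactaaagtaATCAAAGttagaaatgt

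OCR_77735: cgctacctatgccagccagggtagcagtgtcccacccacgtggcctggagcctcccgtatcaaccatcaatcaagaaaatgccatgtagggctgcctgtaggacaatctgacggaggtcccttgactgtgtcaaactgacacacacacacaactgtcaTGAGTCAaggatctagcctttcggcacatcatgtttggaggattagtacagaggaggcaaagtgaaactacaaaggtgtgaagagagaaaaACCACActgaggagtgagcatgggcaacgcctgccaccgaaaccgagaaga

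OCR_2097: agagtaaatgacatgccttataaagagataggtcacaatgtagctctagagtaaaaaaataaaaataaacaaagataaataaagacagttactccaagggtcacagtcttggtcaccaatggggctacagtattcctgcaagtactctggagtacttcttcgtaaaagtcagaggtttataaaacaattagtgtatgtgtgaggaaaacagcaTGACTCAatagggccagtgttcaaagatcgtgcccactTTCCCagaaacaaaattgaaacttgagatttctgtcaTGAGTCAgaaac

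The last pair are the region in the Cblb desert that was lower after stimulation (chr16:51690950-51691249) and the region with the largest positive difference between genotypes in its response (chr15:25201731-25202030).

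OCR_46187: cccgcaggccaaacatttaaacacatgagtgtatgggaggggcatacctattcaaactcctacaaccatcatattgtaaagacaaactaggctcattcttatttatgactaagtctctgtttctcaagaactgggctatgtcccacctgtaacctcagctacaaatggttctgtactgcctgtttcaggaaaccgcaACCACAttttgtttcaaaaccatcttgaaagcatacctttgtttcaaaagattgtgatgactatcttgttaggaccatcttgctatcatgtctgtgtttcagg

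OCR_39302: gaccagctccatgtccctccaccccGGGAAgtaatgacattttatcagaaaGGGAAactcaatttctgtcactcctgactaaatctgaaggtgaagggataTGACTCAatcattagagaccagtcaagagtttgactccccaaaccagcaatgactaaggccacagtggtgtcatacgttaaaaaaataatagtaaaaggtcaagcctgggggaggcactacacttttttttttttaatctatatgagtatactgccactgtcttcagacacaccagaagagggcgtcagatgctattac

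Most far intergenic regions lay over no annotated gene of any kind. Of the 12787, 11987 overlapped none, and 800 (6.26%) overlapped a non-coding gene, a pseudogene or an immunoglobulin segment, 355 of them a lincRNA, 294 a processed transcript and 57 an immunoglobulin segment. The nearest protein-coding start site was a median of 150.0 kb away, with the middle 50% between 82.8 and 297 kb. The region just inside the 50 kb limit, OCR_111117, was 50004 bases from a start site with a mean of 9.95 FPKM, and the region just outside, OCR_75640, was 49978 bases away with 7.71. Chromosome 2 held the most far intergenic regions (1066) and chromosome 19 the fewest (84) other than Y, which held 0, and the X chromosome held 118.

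They were weaker than other open chromatin and of much the same length as other regions away from start sites. The median of their mean level was 6.94 FPKM, against 9.44 in gene bodies, 9.8 in intergenic regions nearer to start sites and 22.9 at start sites. Their median length was 534 bases, against 536, 559 and 1113 in the same order. GC content was a median of 49.3%, and CpG dinucleotides were at 0.959 per 100 bases, against 1.26, 1.36 and 6.31. When all tested regions were cut into 5 equal bins by mean CPM, 41.4% of the far intergenic regions fell in the weakest bin (1.44 to 3.25 CPM) and 6.92% in the strongest.

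Which libraries carried a region differed strongly among them. A set of 3390 regions (26.5%) reached 3.6 CPM in all 12 libraries, and 6356 (49.7%) had fewer than 3 such libraries outside WT stimulated Treg. Of these, 4375 reached it in WT stimulated libraries alone, against 26 in WT ex vivo, 7 in Ikzf1-cko ex vivo and 9 in Ikzf1-cko stimulated libraries alone. The regions present in all 12 libraries were longer (median 879.5 bases) and stronger (12.6 FPKM) than those that needed stimulated WT Treg (437 bases and 6.06 FPKM), and had lower GC content (47.0% against 51.3%).

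The balance shifted with distance, as the plot of distance classes shows. Between 50 and 100 kb from a start site, 39.7% of 4271 regions were present in all 12 libraries and 31.0% needed stimulated WT Treg. In the farthest class, 8.03% of 1332 regions were present in all 12 and 74.4% needed stimulated WT Treg. Median FPKM fell along the same classes, from 8.2 through 6.98 and 6.36 to 6.11, and these are descriptions of the regions with no test.

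**Figure D1:**
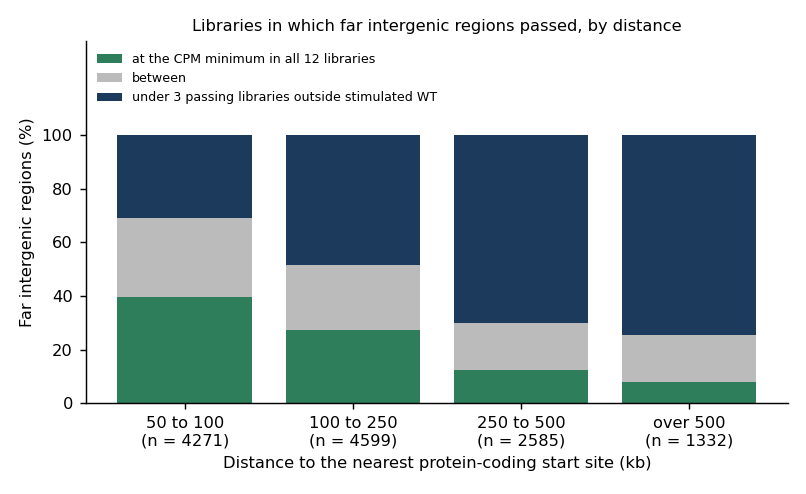
The percent of far intergenic regions (vertical axis, stacked bars) by the libraries in which they reached 3.6 CPM, in 4 classes of distance to the nearest protein-coding start site in kb (horizontal axis). Regions present in all 12 libraries made up 39.7% of the nearest class and 8.03% of the farthest.

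Far intergenic regions took up a smaller share of the region reads in Ikzf1-cko than in WT Treg. In WT Treg ex vivo the share was 8.93%, 8.65% and 8.22%, and in Ikzf1-cko Treg ex vivo 7.62%, 7.45% and 7.88%. After stimulation it was 10.3%, 9.67% and 10.2% in WT and 7.94%, 7.81% and 7.40% in Ikzf1-cko Treg. Every Ikzf1-cko library lay below every WT library of the same state. Since 49.7% of the regions entered only with the help of WT stimulated libraries, a higher share in WT stimulated Treg was in part fixed by the level rule.

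The difference (Ikzf1-cko minus WT) was -0.951 percentage points ex vivo and -2.33 points after stimulation, and that between stimulated and ex vivo Treg was 1.45 points in WT and 0.0695 points in Ikzf1-cko Treg. These are given as descriptions with no test, for the reason above.

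The 3390 regions present in all 12 libraries entered through no single group, although the set leaves out any region that fell under the level in 1 library. On these regions the genotype difference over both states was 0.145 points (exact permutation test over libraries within state, two-sided p = 0.29), and the difference on stimulation was -0.658 points (exact permutation p = 0.005, the smallest that the 400 arrangements can give). Over all far intergenic regions the same 2 differences were -1.64 and 0.759 points, of the opposite sign. In the set present in all 12 libraries, the genotype difference was -0.165 points ex vivo and 0.456 points after stimulation. The value of 0.145 averages these opposite signs, so its test does not speak for either state alone.

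After stimulation the genotype difference sat mostly in the regions that needed stimulated WT Treg, which the level rule itself placed there. Their mean was 3.5% in WT and 1.26% in Ikzf1-cko, against 10.0% and 7.72% over all far intergenic regions. Ex vivo they carried only part of it, at 1.39% and 0.888% against 8.6% and 7.65%. The regions that needed stimulated WT Treg took 1.64%, 1.47% and 1.07% of the reads in WT ex vivo, 3.81%, 3.07% and 3.61% in WT stimulated, 0.695%, 0.715% and 1.25% in Ikzf1-cko ex vivo and 1.5%, 1.21% and 1.06% in Ikzf1-cko stimulated libraries. The 3390 regions present in all 12 libraries took 5.72% to 5.81% in WT ex vivo, 5.36% to 5.79% in Ikzf1-cko ex vivo, 4.66% to 4.94% in WT stimulated and 5.17% to 5.35% in Ikzf1-cko stimulated Treg. In this set the genotypes overlapped ex vivo, and after stimulation every Ikzf1-cko library lay above every WT library. Reads at start sites moved the other way, with 43.8% to 46.4% in WT ex vivo, 48.3% to 48.9% in Ikzf1-cko ex vivo, 40.4% to 42.0% in WT stimulated and 48.6% to 50.6% in Ikzf1-cko stimulated Treg. Whether the spread of reads between start sites and weak regions, or the shallower WT libraries, had a part in the share was not tested.

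**Figure D2:**
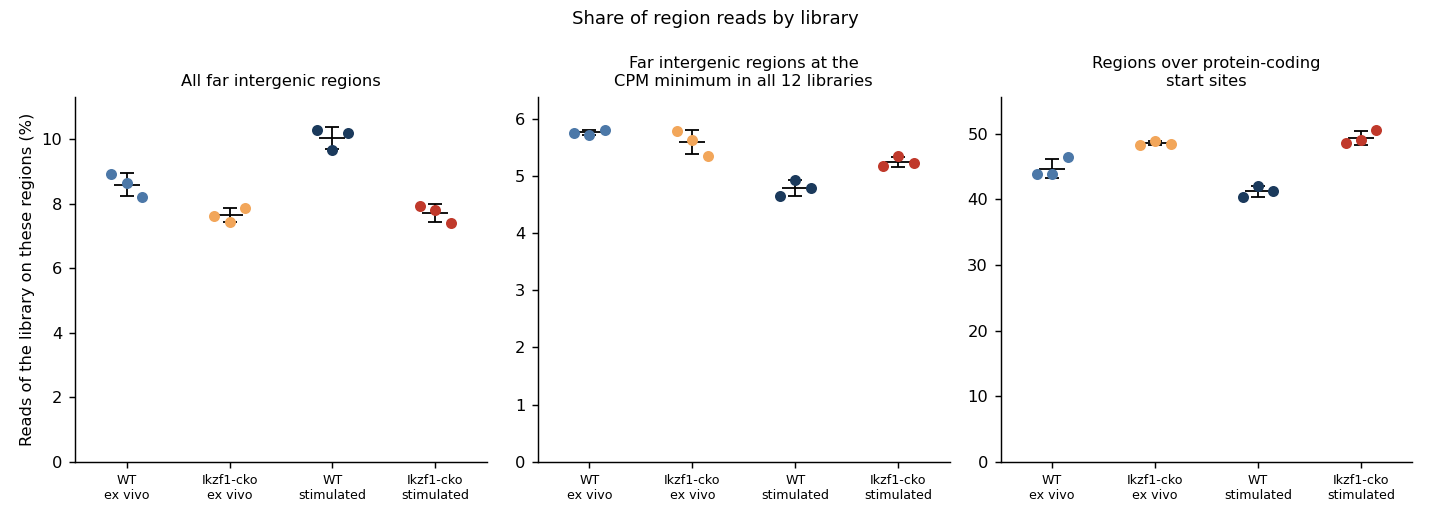
The percent of each library's region reads (vertical axis) on all far intergenic regions, on the 3390 present in all 12 libraries and on start site regions, in the 4 groups (horizontal axis), with 1 point for each library and bars for mean ± SD (n = 3). In the first panel the WT stimulated libraries sit highest, at 9.67% to 10.3%, and no Ikzf1-cko library exceeds 7.94%.

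The strongest far intergenic signals were of a few kinds. OCR_50459 (chr17:39980016-39983685), the strongest, held 547, 479 and 329 FPKM in WT ex vivo, 302, 292 and 256 in Ikzf1-cko ex vivo, 1140, 1240 and 1010 in WT stimulated and 809, 656 and 617 in Ikzf1-cko stimulated libraries. Its neighbour OCR_50460 (chr17:39984447-39985781), which lies over AY036118, followed the same order at 212 to 920 FPKM, and so did OCR_20948 (chr11:108872889-108873484), at 78.7 to 397 FPKM, on another chromosome. In all 3 regions the WT stimulated libraries were highest, and every Ikzf1-cko library lay below every WT library of its state. RefSeq (GRCm38.p6) lists the pseudogene Rn18s-rs5, a relative of ribosomal RNA, next to AY036118, and what such copies add to reads at these regions was not tested. Stimulation raised OCR_50459 by a log2 fold change of 1.33 ± 0.10 (SE) in WT (edgeR quasi-likelihood test, Benjamini-Hochberg adjusted p = 5.8e-11) and 1.29 ± 0.10 in Ikzf1-cko Treg (adjusted p = 2.2e-10).

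The other strong regions behaved differently. OCR_120 (chr1:7387332-7388625), over the non-coding gene Gm16899, held 144, 153 and 163 FPKM in WT ex vivo, 157, 152 and 158 in Ikzf1-cko ex vivo, 100, 99.0 and 104 in WT stimulated and 131, 134 and 139 in Ikzf1-cko stimulated libraries. Its WT stimulated libraries were the lowest, and it was called in no comparison. OCR_46187, in the Cblb desert, is described with stimulation.

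The farthest regions included weak and steady ones. OCR_4052 (chr1:104240997-104241486) was the farthest, 2420 kb upstream of Cdh20, and OCR_37019 (chr14:82690477-82690839) lay 2150 kb upstream of Pcdh17. Both reached the level in WT stimulated libraries alone, at 7.46 to 11.9 and 11.5 to 15.9 FPKM, against at most 5.41 and 7.66 ex vivo in WT. By contrast OCR_4050 (chr1:103798225-103799700), 2130 kb from Cntnap5b, was present in all 12 libraries at 11.5 to 20.8 FPKM and was called in no comparison. This region matched 9 other places of the genome over at least 80% of its length, where reads can be assigned to the wrong copy.

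A few regions resembled mitochondrial DNA, of which the nuclear genome holds copies. Matches to the mitochondrial genome covered at least 80% of the length of 4 regions. OCR_79576 (chr4:79648238-79648688) matched over 100% of its length at 91.6% identity, OCR_79577 (chr4:79649242-79651174) over 96.4%, OCR_31176 (chr13:85266122-85267190) over 89.2% and OCR_94164 (chr6:79768019-79768411) over 82.2%. They held 3.87 to 15.7 FPKM over the 12 libraries, and none was called in any comparison.

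Ex vivo, more far intergenic regions were lower than higher in Ikzf1-cko Treg. A region is called here when its adjusted p is under 0.05 and its log2 fold change over 1 in size, with library totals over all regions as the scaling. In Ikzf1-cko against WT Treg ex vivo, 51 far intergenic regions were called higher and 925 lower (0.399% and 7.23%), against a background of 0.588% higher and 4.04% lower over all tested regions. The median log2 fold change was -0.45, against -0.13 over all tested regions. This lean rested on the scaling and on weak regions. With loess scaling against abundance, which centres weak and strong regions separately, 129 were called higher and 146 lower with a median of -0.08, and 141 of those 146 were among the 925. Among the 3390 regions present in all 12 libraries, 22 were called higher and 34 lower at a median of -0.07. Without Ikzf1-cko ex vivo replicate 3, which had 1.25% of its reads on the regions that needed stimulated WT Treg against 0.695% and 0.715% in the other 2 of its group, 3504 were called, without WT ex vivo replicate 3 1686, and without any of the other ex vivo libraries 465 to 547.

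The largest gains ex vivo lay near Map3k1, a kinase of the JNK pathway, and Tmsb4x, an actin-binding protein. OCR_32818 (chr13:112770406-112770797), 171 kb upstream of Map3k1, held 8.34, 8.11 and 6.23 FPKM in WT ex vivo and 36.1, 35.0 and 29.2 in Ikzf1-cko ex vivo libraries. After stimulation it held 4.64, 7.92 and 3.71 in WT and 15.8, 16.6 and 16.7 in Ikzf1-cko libraries, so every Ikzf1-cko library exceeded every WT library in both states. The log2 fold change was 2.17 ± 0.19 ex vivo (adjusted p = 1.5e-09) and 1.58 ± 0.24 after stimulation (adjusted p = 6.8e-06). This region reached the level in Ikzf1-cko libraries alone, so a higher value there follows in part from how it entered.

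OCR_118548 (chrX:163556962-163557887), 88.9 kb downstream of Tmsb4x, held 5.82, 5.15 and 5.40 FPKM in WT and 19.3, 20 and 18.5 in Ikzf1-cko libraries ex vivo, with no overlap. It rose by 1.83 ± 0.15 on the log2 scale (adjusted p = 1.1e-09). OCR_63760 (chr2:75600735-75601856), 58.0 kb upstream of Nfe2l2, the regulator of the oxidative stress response, went from 4.12, 3.66 and 4.04 to 11.4, 13.3 and 12.1 FPKM (log2 fold change 1.64 ± 0.16, adjusted p = 2e-08). All 3 regions kept this call under every alternative that was checked for single regions and without any 1 library. Those checks left out the filters on all 12 libraries and on mean CPM. OCR_32818 and OCR_118548 did not reach the level in all 12 libraries.

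The largest losses lay on chromosome 11 on both sides of the deleted gene. Only 3 far intergenic regions had at most 1 read in each of the 6 Ikzf1-cko libraries, and all 3 were within 5 Mb of Ikzf1, while no region had so few in the 6 WT libraries. OCR_16556 (chr11:14042402-14043145), 2.37 Mb from Ikzf1 and over the non-coding gene 4930554G24Rik, held 20.9, 21.4 and 23.8 FPKM in WT ex vivo and 19.1, 15.5 and 20.1 in WT stimulated libraries. In the Ikzf1-cko libraries it held 0.0977 FPKM in ex vivo replicate 2 and 0 in the other 5. Against a floor of 3 reads per library it was at least 73.4-fold lower ex vivo and at least 45.6-fold lower after stimulation.

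OCR_16555 (chr11:14037852-14038193), in the same gene, was at least 14.1-fold and 16.1-fold lower by the same floor, and OCR_16436 (chr11:10956123-10956838), 0.628 Mb from Ikzf1, at least 10.3-fold and 24.2-fold lower. OCR_16555 matched 122 other places of the genome over at least 80% of its length and OCR_16556 matched 3, with a best identity of 87.1% and 88.1%, whereas OCR_16436 matched none. OCR_16555 and OCR_16436 would not have entered without WT stimulated libraries. OCR_16556 reached the level in WT libraries alone, so lower values in Ikzf1-cko Treg follow in part from entry. Of the 60 far intergenic regions within 5 Mb of Ikzf1, 11 were called lower ex vivo and 0 higher, against 7.23% lower over all far intergenic regions, and 9 were called lower with loess scaling. The genotype of the flanking chromosome was not measured, so linked sequence differences and loss of Ikaros cannot be told apart there. Without these 60 regions, 965 of the 976 calls ex vivo stood.

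The next regions are the most changed ones near listed genes for T cell transcription factors, around which lower calls stood near the background (31 of 457 regions, 6.78%, against 7.23% of all far intergenic regions). OCR_112458 (chr9:32708744-32709423), 205 kb downstream of Ets1, a factor that T cells need in the naive state, held 14.4, 12.5 and 12.3 FPKM in WT and 1.63, 2.99 and 2.01 in Ikzf1-cko libraries ex vivo. After stimulation it held 10.5, 14 and 9.79 against 3.83, 1.5 and 2.95, again without overlap. The log2 fold change was -2.55 ± 0.25 ex vivo (adjusted p = 1.1e-08) and -2.05 ± 0.26 after stimulation (adjusted p = 5.3e-07). OCR_112458 reached the level in WT libraries alone, so a lower value in Ikzf1-cko Treg follows in part from how it entered.

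OCR_51132 (chr17:52316761-52317250), 344 kb upstream of Satb1, a genome organizer of thymocytes and Treg precursors, held 13.7, 13.2 and 12.1 FPKM in WT and 2.66, 2.97 and 2.97 in Ikzf1-cko libraries ex vivo. It was also low after stimulation in WT, at 2.70, 7.83 and 2.97, where it overlapped the 2.43, 1.45 and 2.85 of Ikzf1-cko. It was lower by a log2 fold change of -2.17 ± 0.35 ex vivo (adjusted p = 3.6e-05), and by -1.52 ± 0.37 on stimulation of WT Treg (adjusted p = 0.0013). Of the 28 far intergenic regions nearest to Satb1, 4 were called lower in Ikzf1-cko ex vivo and 0 higher, against 7.23% lower over all far intergenic regions and 4.04% over all tested regions. OCR_51132 reached the level in 3 WT ex vivo libraries and 1 other, so a lower value elsewhere follows in part from how it entered.

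OCR_76910 (chr4:7461455-7462002), 543 kb upstream of Tox, held 20.7, 14.7 and 16.6 FPKM in WT and 6.18, 6.10 and 5.93 in Ikzf1-cko libraries ex vivo, and the groups did not overlap (log2 fold change -1.49 ± 0.19, adjusted p = 9.9e-07). Tox encodes an HMG-box factor of T cell development. Losses ex vivo were also called at OCR_26420 (chr12:109017496-109017939) near Bcl11b, at -1.70 ± 0.32, at OCR_74804 (chr3:130727081-130727321) near Lef1, at -1.49 ± 0.28, at OCR_12088 (chr10:66893593-66893953) near Egr2, at -1.43 ± 0.22, and at OCR_44761 (chr16:24181339-24181867) near Bcl6, at -1.28 ± 0.23. These encode, in turn, a factor of T cell commitment, a partner of the Wnt pathway, an early response factor and the repressor of follicular T cells. In each of the 4 the 3 WT libraries lay above the 3 Ikzf1-cko libraries, and each was called with loess scaling too. The regions near Bcl11b, Lef1, Egr2, Runx1 and Eomes would not have entered without WT ex vivo libraries, so a loss there was in part fixed by entry. Losses near Runx1, Eomes, Jun and Gata3 were called with library totals (-1.33 ± 0.30, -1.26 ± 0.33, -1.13 ± 0.28 and -1.36 ± 0.29), and of these the loess scaling kept the Gata3 call. The Jun value was -0.89 without WT ex vivo replicate 1 (adjusted p = 0.057) and -0.99 without Ikzf1-cko ex vivo replicate 1. A gain near Klf6, a zinc finger factor, at OCR_27438 (chr13:6190787-6191607) was called at 1.17 ± 0.21 and was 0.83 without WT ex vivo replicate 3.

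After stimulation the lower calls were many more, and almost all sat in weak regions. In Ikzf1-cko against WT stimulated Treg, 110 far intergenic regions were called higher and 6156 lower (0.86% and 48.1%), against a background of 1.16% higher and 20.2% lower, with a median of -0.93 against -0.11. Of the 6356 regions that needed stimulated WT Treg to enter, 5373 were called lower, a direction that the way they entered favoured. Loess scaling called 210 higher and 880 lower at a median of -0.11, of which 851 were among the 6156. Among the regions present in all 12 libraries, 78 were called higher and 78 lower, at a median of 0.12.

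The calls by level show where the lower calls lay. With library totals, 83.2% of the far intergenic regions in the weakest bin were called lower, against 58.8% of other tested regions of that bin, and 0.791% in the strongest bin against 0.267%. With loess scaling the weakest bin gave 0.529% against 0.391%, and the middle bin gave 17.2% lower against 4.84%. In the strongest bin 4.29% of far intergenic regions were called higher, against 1.39% of others, with library totals, and 1.13% against 0.313% with loess scaling. No test was run on these shares.

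**Figure D3:**
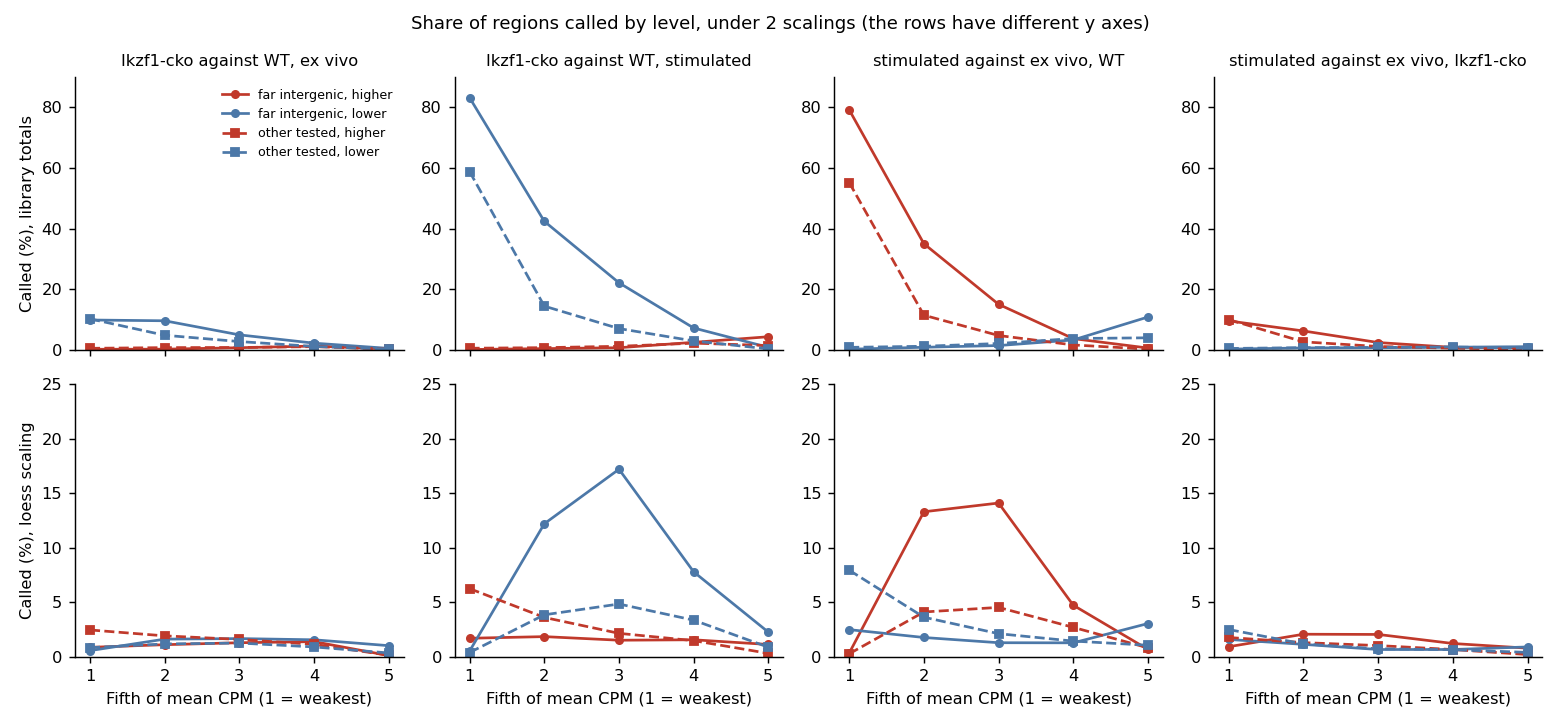
The percent of regions called higher and lower (vertical axis) in 5 bins of mean CPM from weakest to strongest (horizontal axis), for far intergenic regions (solid lines) and the other tested regions (dashed lines) in 4 comparisons, with library totals in the upper row and loess scaling in the lower row, whose vertical axes differ. With library totals, 83.2% of far intergenic regions in the weakest bin were lower in stimulated Ikzf1-cko Treg, and 0.529% with loess scaling.

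The 110 regions called higher in stimulated Ikzf1-cko Treg had a median level of 18.9 FPKM, against 9.61 for the 210 called with loess scaling and 6.94 over all far intergenic regions. OCR_46101 (chr16:49982203-49982978), 114 kb downstream of Cd47, the ligand that restrains phagocytosis, held 10.4, 12.5 and 11 FPKM in WT and 32.6, 29.4 and 36.8 in Ikzf1-cko libraries after stimulation. Ex vivo it held 15.9, 15.5 and 16.8 against 27.4, 27.7 and 21.3, so the genotypes did not overlap in either state. The log2 fold change was 1.55 ± 0.14 after stimulation (adjusted p = 4.2e-09) and 0.67 ± 0.13 ex vivo (adjusted p = 0.00032). OCR_86323 (chr5:63284036-63284981), 79.0 kb from Gm17384, held 10.5, 13.3 and 11.4 FPKM in WT and 34.4, 34.3 and 32.8 in Ikzf1-cko libraries after stimulation, and rose by 1.53 ± 0.14 (adjusted p = 5e-09).

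The most changed regions near listed genes included several gains. OCR_77735 (chr4:32213452-32214341), 111 kb upstream of Bach2, which restrains effector differentiation in Treg, held 10.0, 10.9 and 8.88 FPKM in WT stimulated and 30.7, 23.6 and 26.5 in Ikzf1-cko stimulated libraries. Ex vivo it held 21.0, 20.5 and 21.0 against 42.5, 38.7 and 33.7. In both states the Ikzf1-cko libraries were the higher, and the log2 fold change was 1.43 ± 0.14 after stimulation (adjusted p = 1.4e-08).

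OCR_2097 (chr1:60890306-60890911), 52.9 kb upstream of Ctla4, the inhibitory receptor of Treg, held 5.18, 4.22 and 6.18 FPKM in WT stimulated and 10.6, 13.1 and 11.4 in Ikzf1-cko stimulated libraries. Ex vivo the genotypes overlapped, at 6.67, 9.18 and 7.10 in WT and 7.20, 8.63 and 9.59 in Ikzf1-cko. The log2 fold change was 1.18 ± 0.22 after stimulation (adjusted p = 8.4e-05) and 0.12 ± 0.19 ex vivo (adjusted p = 0.66).

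OCR_36895 (chr14:78819740-78820797), 112 kb upstream of Tnfsf11, the cytokine RANKL, was called higher in both states, at 1.19 ± 0.15 ex vivo and 1.19 ± 0.17 after stimulation. It held 8.18, 7.01 and 6.38 FPKM in WT ex vivo, 16.1, 17.2 and 15.1 in Ikzf1-cko ex vivo, 4.38, 7.43 and 5.31 in WT stimulated and 11.7, 13.8 and 13.4 in Ikzf1-cko stimulated libraries. After stimulation OCR_32859 (chr13:113188216-113188754) near Il6st, the shared receptor chain gp130, rose by 1.20 ± 0.17, OCR_2470 (chr1:69545389-69546060) near Ikzf2, which encodes Helios, by 1.19 ± 0.24, and OCR_64856 (chr2:102796681-102797642) near Cd44 by 1.15 ± 0.12. The Cd44 value was 0.87 with loess scaling, under the fold threshold, and the Ikzf2 value was 0.93 without WT stimulated replicate 3. Around Ikzf1, 50 of the 60 far intergenic regions within 5 Mb were called lower after stimulation with library totals and 10 with loess scaling, against 48.1% and 6.88% of all far intergenic regions and 20.2% and 3.5% of all tested regions.

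With library totals, stimulation of WT Treg gave higher calls among weak regions and lower calls among strong ones. Between WT stimulated and WT ex vivo Treg, 5526 far intergenic regions were called higher and 214 lower (43.2% and 1.67%), against a background of 17.7% higher and 2.32% lower, at a median of 0.71 against 0.04. Of the 5526, 5081 were regions that needed stimulated WT Treg to enter, and the way they entered favoured this direction too. Loess scaling called 765 higher and 257 lower at a median of 0.07, with 743 and 105 shared. Among the regions present in all 12 libraries, 26 were called higher and 152 lower at a median of -0.28. With library totals, 79.2% of far intergenic regions in the weakest bin of level were called higher and 0.17% lower, whereas loess scaling called 0.34% higher and 2.49% lower, so the direction in weak regions turned with the scaling. Loess scaling takes out any shift that weak regions share, so it cannot show which direction is right there. OCR_16436 held 2.69, 4.07 and 2.92 FPKM in WT ex vivo and 13.6, 8.68 and 7.84 in WT stimulated libraries. It was called higher with library totals, at 1.63, and lower with loess scaling, at -2.09. In the strongest bin, 10.8% of far intergenic regions were called lower against 3.94% of others with library totals, and 3.05% against 1.06% with loess scaling.

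OCR_46187 (chr16:51690724-51691477) was the strongest region called lower. The stronger OCR_120 had a log2 fold change of -0.60 ± 0.06 in WT (adjusted p = 8.8e-09), short of the fold threshold. OCR_46187 lies 340 kb upstream of Cblb, which encodes a ubiquitin ligase that dampens T cell receptor signals, and held 167, 168 and 167 FPKM in WT ex vivo and 56.8, 72.0 and 73.1 in WT stimulated libraries. In Ikzf1-cko Treg it held 181, 158 and 129 ex vivo and 121, 117 and 125 after stimulation, so the ex vivo genotypes overlapped and the stimulated ones did not. It fell by a log2 fold change of -1.32 ± 0.10 in WT (adjusted p = 3.1e-11), and the value in Ikzf1-cko Treg was -0.37 ± 0.08 (adjusted p = 0.0017). The difference between these responses was 0.95 ± 0.13 (adjusted p = 7.6e-05), just under the fold threshold.

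Of the 214 regions called lower, 8 lay near listed factor genes and 8 near listed surface and cytokine genes. These were 1.75% of 457 and 7.77% of 103 regions, against 1.67% of all far intergenic and 2.32% of all tested regions, so the factor genes stood near the background. The most changed of these are given here. OCR_15140 (chr10:118070415-118071159), 192 kb downstream of Ifng, held 53.2, 47.8 and 49.2 FPKM in WT ex vivo and 19.5, 18.4 and 18.7 in WT stimulated libraries, and in Ikzf1-cko 48.1, 43.1 and 44.5 against 21.3, 23.2 and 26.8. Every stimulated library lay below every ex vivo library in both genotypes, and the WT log2 fold change was -1.40 ± 0.12 (adjusted p = 1.5e-10). OCR_74165 (chr3:115496216-115497037), near S1pr1, the receptor for egress from lymphoid organs, fell by -1.34 ± 0.14 in WT, OCR_9770 (chr10:19225636-19226564), near Ifngr1, by -1.25 ± 0.14, and OCR_71351 (chr3:52201806-52202330), near the forkhead gene Foxo1, by -1.45 ± 0.19. All of these kept their call with loess scaling. OCR_2171 (chr1:61197818-61198159), near Icos, the costimulatory receptor, went the other way, from 6.19, 5.04 and 4.42 to 11.6, 15.0 and 18.8 FPKM in WT (1.55 ± 0.32, adjusted p = 0.00025). It would not have entered without stimulated libraries.

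The regions of largest fold by the naming rule were weak ones. OCR_30496 (chr13:71180880-71181163), OCR_104896 (chr7:145731802-145732044) and OCR_8797 (chr1:196163185-196163493) rose by 3.36 ± 0.58, 3.20 ± 0.55 and 3.14 ± 0.50 in WT, from at most 3.17 FPKM in any WT ex vivo library. All 3 reached the level in WT stimulated libraries alone, so a rise was fixed by how they entered. With loess scaling these were 0.73, 0.93 and 1.03, and only OCR_8797 kept its call. OCR_71779 (chr3:60566864-60567181), OCR_73349 (chr3:97131745-97132099) and OCR_92013 (chr6:30999547-30999811) fell by -1.78 ± 0.37, -1.76 ± 0.37 and -1.73 ± 0.34, and were called with loess scaling too, at -2.8, -2.8 and -2.87. Loess scaling moved all 3 values downward, so keeping the call there is no separate check on the falls. These regions in turn would not have entered without WT ex vivo libraries.

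Stimulation of Ikzf1-cko Treg gave fewer calls. In Ikzf1-cko stimulated against ex vivo Treg, 742 far intergenic regions were called higher and 65 lower (5.8% and 0.508%), against a background of 3.02% and 0.632%, at a median of 0.24 against 0.06. Loess scaling called 177 higher and 149 lower, and among the regions present in all 12 libraries 13 were called higher and 24 lower. Without Ikzf1-cko ex vivo replicate 3 there were 2815 calls, and without any 1 of Ikzf1-cko ex vivo replicates 1 and 2 and Ikzf1-cko stimulated replicate 1 there were 424 to 468.

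OCR_39302 (chr15:25201749-25202013) had a gain in this comparison, and would not have entered without Ikzf1-cko stimulated libraries. It lies 123 kb upstream of 9230109A22Rik and held 8.85, 6.31 and 7.74 FPKM in Ikzf1-cko ex vivo and 28.2, 27.3 and 30.6 in Ikzf1-cko stimulated libraries. In WT it held 21.8, 8.0 and 11.4 ex vivo and 13.1, 11.7 and 18.8 after stimulation, which overlapped. The log2 fold change was 1.90 ± 0.23 in Ikzf1-cko (adjusted p = 3.5e-07) and 0.15 ± 0.30 in WT Treg (adjusted p = 0.70). OCR_2466 (chr1:69424121-69424718) rose by 1.94 ± 0.36 from 1.20, 1.46 and 1.43 FPKM, and OCR_84932 (chr5:25397250-25397668) by 1.90 ± 0.56, a call that was lost without any 1 of Ikzf1-cko ex vivo replicates 1 and 2 and Ikzf1-cko stimulated replicate 1 (adjusted p from 0.059 to 0.097). OCR_92048 (chr6:31100457-31100797) fell by -2.12 ± 0.24, from 18, 27.3 and 31.3 to 7.0, 3.88 and 6.39 FPKM, after entering with the help of Ikzf1-cko ex vivo libraries, and OCR_67135 (chr2:146431953-146432430) by -1.65 ± 0.23. OCR_92013 also fell here, by -1.91 ± 0.33, so it was lower after stimulation in both genotypes. OCR_67135 and OCR_92013 reached the level in ex vivo libraries alone, so a fall follows in part from how they entered. Gains near Rbpj, the Notch effector, at OCR_86126 (chr5:53862074-53862733), and near Cxcr4, a chemokine receptor, at OCR_4883 (chr1:130620988-130621704), were 1.32 ± 0.23 and 1.26 ± 0.20 and were called with loess scaling as well. Neither OCR_86126 nor OCR_4883 would have entered without stimulated libraries.

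The response to stimulation differed between genotypes at few far intergenic regions. The difference of the genotype effects (stimulated minus ex vivo) was called higher at 71 and lower at 368 (0.555% and 2.88%), against a background of 0.579% and 1.4%. Loess scaling called 75 higher and 133 lower, with 46 and 123 shared, and among the regions present in all 12 libraries 38 were called higher and 15 lower. The total of 439 rested on single libraries. It was 1214, 731 and 145 without Ikzf1-cko ex vivo replicates 1, 2 and 3 in turn, and 234 and 113 without WT ex vivo replicates 2 and 3. Of the stimulated libraries, leaving out WT replicate 1 or 3 gave 129 or 208, and leaving out Ikzf1-cko replicate 1, 2 or 3 gave 781, 203 or 115.

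OCR_39302 had the largest positive value, 1.75 ± 0.38 (adjusted p = 0.004). OCR_62241 (chr2:48012103-48012633), over the non-coding gene Gm13481, went from 8.70, 8.98 and 5.91 to 5.92, 5.50 and 4.70 FPKM on stimulation in WT and from 3.8, 4.24 and 3.7 to 6.94, 9.39 and 9.53 in Ikzf1-cko Treg. The genotypes thus traded places, with a difference of 1.66 ± 0.37 (adjusted p = 0.0051). OCR_39302 and OCR_62241 would not have entered without Ikzf1-cko stimulated libraries, so a positive value follows in part from entry. OCR_62979 (chr2:61335067-61335400), 81.2 kb upstream of Tank, an adaptor of NF-kB signalling, held 19.6, 20.6 and 21.6 FPKM in WT ex vivo and 15.3, 21.9 and 12.5 in WT stimulated libraries, and 15.2, 10.4 and 12 against 23.4, 28.6 and 30.0 in Ikzf1-cko. Its difference was 1.43 ± 0.28 (adjusted p = 0.0016).

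The most negative values were at OCR_104896, OCR_109048 (chr8:92926086-92926334) and OCR_43799 (chr16:7844554-7844855), at -3.54 ± 0.78, -3.11 ± 0.82 and -2.97 ± 0.73. Each was a weak region that reached the level in the 3 WT stimulated libraries alone, so a negative value follows from how it entered. With loess scaling they were -2.05, -1.58 and -1.70, and OCR_109048 was no longer called. With library totals, OCR_43799 was at -1.93 without Ikzf1-cko ex vivo replicate 3 (adjusted p = 0.077), and OCR_109048 lost its call without WT ex vivo replicate 2 or 3 or WT stimulated replicate 3 (adjusted p from 0.056 to 0.07).

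The deserts of T cell genes were followed through 57 genes for transcription factors and 49 for cytokines, receptors and surface molecules. Of the 12787 regions, 457 had 1 of 31 of these factor genes as nearest start site, and 103 had 1 of 16 of the surface and cytokine genes. Foxp3 and Ikzf1 were nearest to none. Myc, the driver of growth on activation, had 53, Zeb2, a factor of effector cells, 51, and Gata3, a Treg and Th2 factor, 44. By comparison the genes with the most far intergenic regions around them were Rbfox1 (58), Lphn2 (56) and Cdh26 (54), none of them on the lists.

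Near the factor genes, 4 regions were called higher and 31 lower in Ikzf1-cko Treg ex vivo, at a median of -0.17 (8 and 14 with loess scaling). The 6.78% called lower stood near the 7.23% of all far intergenic regions, above the 4.04% of all tested regions. After stimulation 13 were called higher and 53 lower at a median of -0.02 (16 and 10 with loess), and on stimulation of WT Treg 50 higher and 8 lower (10 and 18 with loess). The 11.6% called lower after stimulation compares with 48.1% of all far intergenic regions and 20.2% of all tested regions, and the 10.9% called higher on stimulation of WT Treg with 43.2% and 17.7%. The balance of the last pair of comparisons thus turned with the scaling. Much of it lay around Zeb2, where 43 of 51 regions were called lower in stimulated Ikzf1-cko Treg with library totals and 9 with loess scaling, and where 5 of the 51 were present in all 12 libraries. At OCR_62174 (chr2:45830767-45831138), 858 kb upstream of Zeb2, WT stimulated libraries held 12, 11.8 and 15.7 FPKM and Ikzf1-cko stimulated libraries 3.5, 3.01 and 1.17, a log2 fold change of -2.37 ± 0.43 with library totals and -0.54 with loess scaling. This region reached the level in WT stimulated libraries alone, so a lower value in Ikzf1-cko Treg follows from how it entered. Around Myc, 29 of 53 regions were present in all 12 libraries, and 7 were called higher and 0 lower in stimulated Ikzf1-cko Treg under either scaling. Higher calls were 0.86% of all far intergenic and 1.16% of all tested regions with library totals, and 1.64% and 2.34% with loess scaling.

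Near the surface and cytokine genes, 2 were called higher and 3 lower ex vivo, and 6 higher and 2 lower after stimulation (6 and 0, then 9 and 0, with loess scaling). On stimulation 4 were called higher and 8 lower in WT, and 5 higher and 0 lower in Ikzf1-cko Treg. The medians were -0.03, 0.31, -0.29 and 0.06 in this order, against -0.13, -0.11, 0.04 and 0.06 over all tested regions. The 5.83% called higher in stimulated Ikzf1-cko Treg compares with 1.16% over all tested regions, and the 7.77% called lower on stimulation of WT Treg with 2.32%. These counts are small, and no test of the lists was run.

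**Figure D4:**
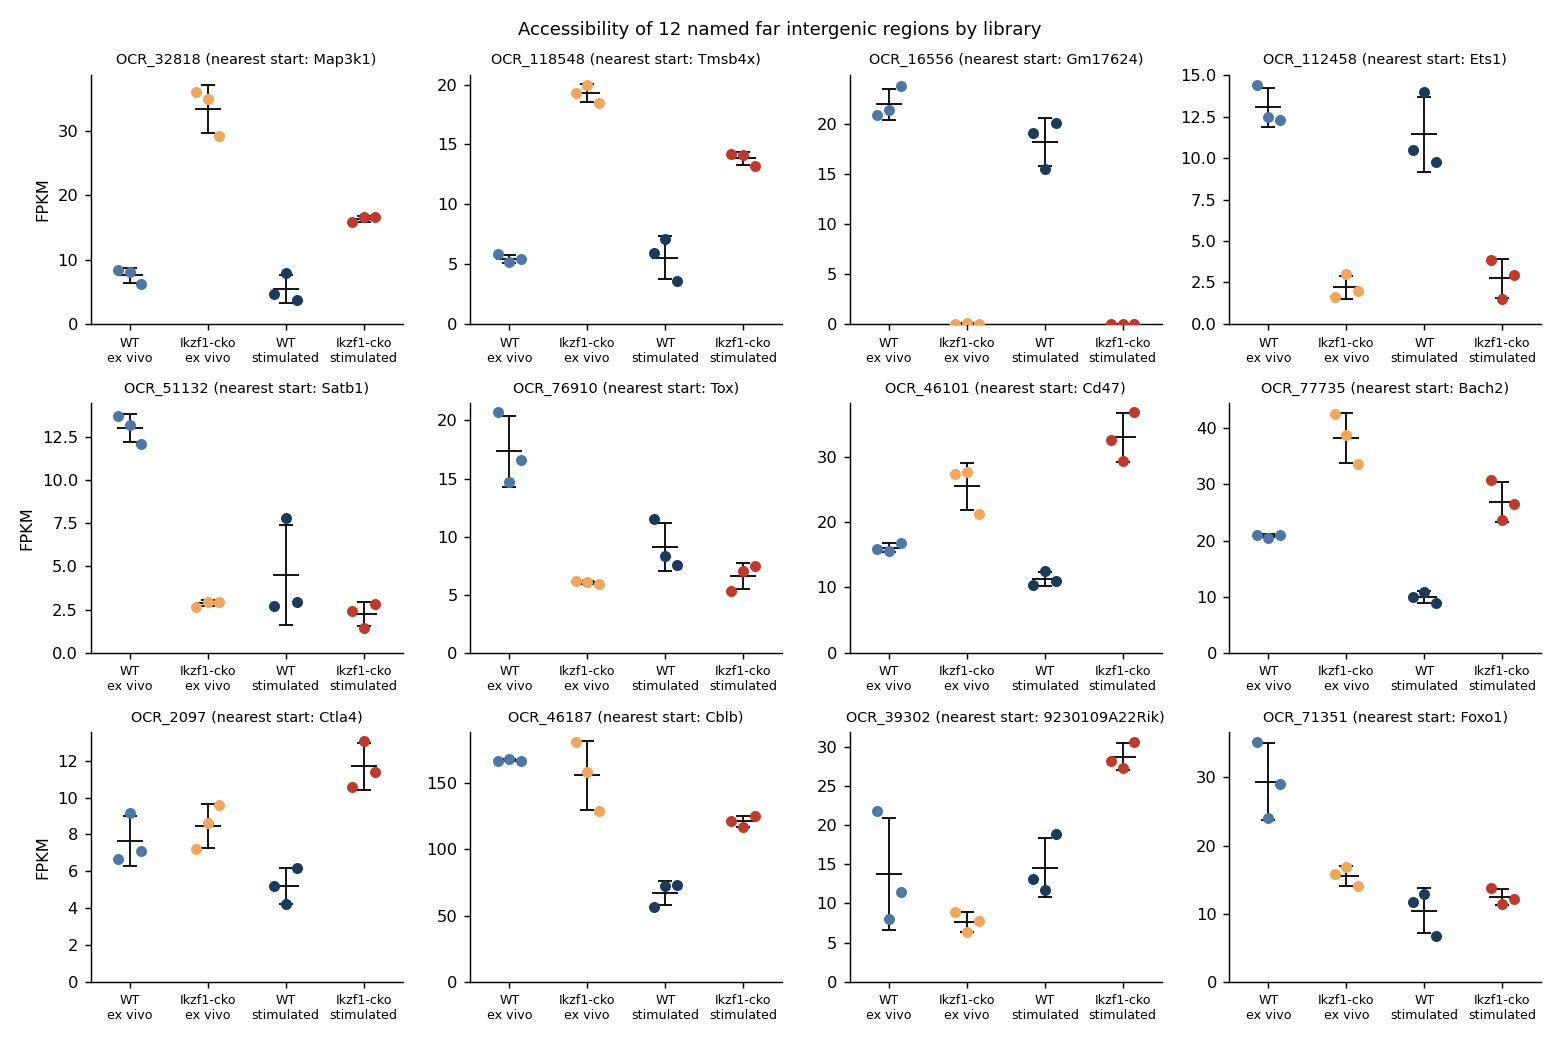
FPKM (vertical axis, linear) of 12 far intergenic regions described in the text, 1 panel for each region, with 1 point for each library by group (horizontal axis) and bars for mean ± SD (n = 3). OCR_32818 sits at 29.2 to 36.1 FPKM in Ikzf1-cko ex vivo against 6.23 to 8.34 in WT ex vivo libraries.

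Motifs were read in the central 300 bases of each region, on both strands. GGGAA, the Ikaros core, lay in 59.3% of far intergenic regions and in 59.3% of all tested regions, and its share was 66.7% of those called higher and 59.6% of those called lower ex vivo. A motif of 5 letters is common by its shortness alone, and these shares were close to the background. TGTGGT lay in 27.0%, against 25% of all tested regions, CAGGAAG in 18.8% against 19.1%, GTAAACA in 3.79% against 3.78% and CTTTGAT in 5.07% against 4.64%. The CTCF core lay in 3.19% against 4.28% of all tested regions and 7.53% of the intergenic regions nearer to start sites.

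TGANTCA varied most between the sets of called regions. It lay in 14.2% of all far intergenic regions and 13.8% of all tested regions, in 20.9% of the regions present in all 12 libraries and in 9.11% of those that needed stimulated WT Treg. Of the 51 called higher in Ikzf1-cko Treg ex vivo 31.4% held it, against 9.08% of the 925 called lower. Of the 110 called higher after stimulation 45.5% held it, against 8.12% of the 6156 called lower. Among the windows printed above, those near Cd47, Bach2 and Ctla4 held it and those near Map3k1 and Tmsb4x did not. On stimulation of WT Treg the order was the reverse, with 7.71% of those called higher and 23.4% of those called lower. Regions that needed stimulated WT Treg made up 5373 of the 6156 called lower after stimulation. They also made up 5081 of the 5526 called higher on stimulation of WT Treg, so these sets were in part fixed by entry.

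The same order stood with loess scaling, at 31.0% and 12.3% ex vivo, 35.2% and 7.05% after stimulation, and 5.23% and 24.1% on stimulation of WT Treg. With library totals, the set called higher in stimulated Ikzf1-cko Treg had a median of 18.9 FPKM and 44.0% GC, and the set called lower 6.07 FPKM and 51.2%. With loess scaling these were 9.61 FPKM and 44.1% against 6.18 FPKM and 50.9%, while by mean CPM, which is not per length, the order was 3.42 against 4.79. The part of level, base composition and entry in the motif shares was not tested. CTTTGAT lay in 11.2% and TGTGGT in 36.9% of the regions that fell on stimulation of WT Treg, and in 3.20% and 22.9% of those that rose. A match is a description of the letters and not a bound site.

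**Figure D5:**
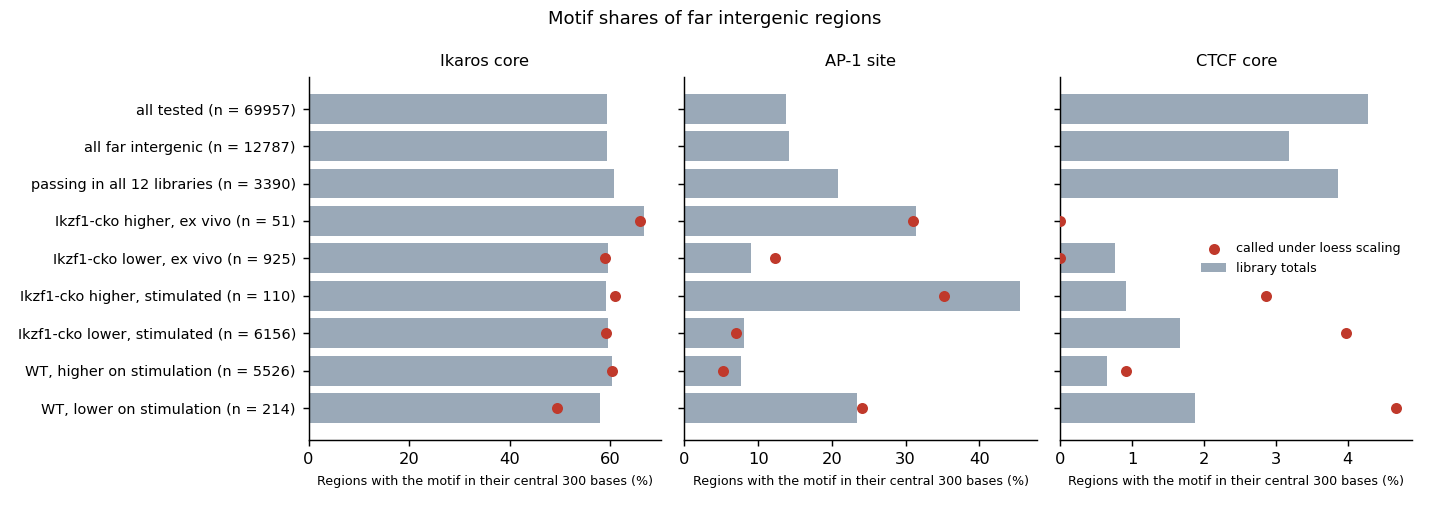
The percent of regions holding the Ikaros core, the AP-1 site or the CTCF core in their central 300 bases (horizontal axis) for all tested regions and for sets of far intergenic regions (vertical axis), as bars for calls with library totals and points for calls with loess scaling. The AP-1 site, TGANTCA, stands at 45.5% of those called higher in stimulated Ikzf1-cko Treg and 8.12% of those called lower.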

How the data were processed

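The data are ATAC-seq libraries of YFP+ Treg, 12 in all, placed in groups from their labels. Per the methods and labels, the authors used the ENCODE ATAC-seq pipeline with Bowtie2 and MACS2 and a reference peak set merged over replicates; the methods print a human build for the alignment, whereas the labels and the regions are mm9. The authors deposited a raw read count and an FPKM value per region and library, and FPKM is that count scaled by the length of the region and the library's sum of region counts, with no background normalization. A second deposited table, with the authors' own fold changes, scores and p-values, was not used.

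Regions were placed against the GENCODE vM1 annotation of NCBIM37 (mm9). The 200 regions off the reference chromosomes were left out of the classes. The quasi-likelihood test of edgeR 4.0.16 (R 4.3.3) was run on the counts, on 4 group means over all 12 libraries and with library totals as scaling, with Benjamini-Hochberg adjustment over the 69957 regions at 3.6 CPM or more in at least 3 libraries. Adjusted p-values are from this fit, and SE is the size of the log2 fold change over the root of F. Depth was 4808916 to 15355521 reads per library, and floors of 3 reads cover counting error only, whereas SE also carries the spread between replicates. Read shares were compared by exact permutation of libraries with SciPy 1.17.1. In simulated counts for the ex vivo genotype comparison over 69957 regions, the fit recovered 99 of 100 changes of 1.5 and 100 of 100 changes of 2.5 on the log2 scale, with 4 false calls. The simulated counts had the same spread between replicates (dispersion 0.00614) at every region and no shift with level. They check that the fit runs correctly and do not give its error rate in these data.

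Alternatives were loess scaling (span 0.3), TMM, DESeq2 1.42.0, limma 3.58.1 on quantile-normalized log2(FPKM + 1), other filters, thinning to the smallest library, fits on the compared libraries, a replicate block, other definitions (25 and 100 kb, or all annotated genes) and leaving out each library. A filter on mean CPM was added after seeing the data. Named regions were the 3 largest called rises and falls without overlap per pairwise comparison, the 5 strongest, the 3 farthest, the 3 highest and lowest genotype-by-stimulation values, the most changed called region near each listed gene, and mitochondrial matches (blastn 2.17.0, at least 80% of the length). The regions, gene lists and rules were chosen with earlier results of these data known, and support nothing by themselves. A marker gene of the cell type check is not reported here.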

Additional observations from a re-analysis of the deposited data

Results flagged for a closer look

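At 12 of the named far intergenic regions the genotype effect differed between stimulated and ex vivo Treg by a test of the difference itself (edgeR quasi-likelihood test, adjusted p under 0.05 and log2 difference over 1 in size). Groups of 3 libraries were not searched for outlying samples.

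The difference was positive at 8 of them. It was 1.75 at OCR_39302, 1.66 at OCR_62241 over Gm13481, 1.43 at OCR_62979 near Tank, 1.32 at OCR_12088 near Egr2, 1.13 at OCR_71351 near Foxo1, 1.08 at OCR_86323 near Gm17384, 1.05 at OCR_2097 near Ctla4 and 1.02 at OCR_76910 near Tox. At OCR_12088, OCR_71351 and OCR_76910 WT Treg were higher than Ikzf1-cko Treg ex vivo and the genotypes overlapped or lay closer after stimulation. At OCR_86323 and OCR_2097 Ikzf1-cko Treg were higher after stimulation. OCR_39302 and OCR_62241 would not have entered without Ikzf1-cko stimulated libraries, nor OCR_12088 without WT ex vivo libraries, so the sign there follows in part from entry. With loess scaling OCR_86323 was at 0.88 and no longer called.

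It was negative at 4 weak regions, at -3.54 for OCR_104896, -3.11 for OCR_109048, -2.97 for OCR_43799 and -2.67 for OCR_8797. All 4 reached 3.6 CPM in WT stimulated libraries alone, so a difference of this sign follows from how they entered. With loess scaling OCR_109048 was at -1.58 and OCR_8797 at -1.26, and neither was called.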

How the results depend on the processing

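Counts of called far intergenic regions depended mostly on the scaling and on the filter, and the cause was not tested beyond the fewer regions that a stricter filter leaves. In the order genotype ex vivo, genotype stimulated, stimulation in WT, stimulation in Ikzf1-cko and genotype by stimulation, library totals gave 976, 6266, 5740, 807 and 439 calls. Loess scaling gave 275, 1090, 1022, 326 and 208. A filter of 3.6 CPM in all 12 libraries gave 56, 157, 178, 37 and 53, a mean of 3.6 CPM, chosen after seeing the data, gave 331, 1338, 1081, 196 and 254, and no filter gave 2371, 14518, 13514 and 2453 for the first 4. DESeq2 gave 617 ex vivo and 43 for genotype by stimulation, where 10487 regions had no adjusted p, limma gave 76 ex vivo, 43 for stimulation in Ikzf1-cko and 3077 for genotype by stimulation, and a fit on the compared libraries gave 540 ex vivo. Without the fold threshold there were 2716 ex vivo, 2571 for stimulation in Ikzf1-cko and 922 for genotype by stimulation. Leaving out 1 library gave 465 to 3504, 5727 to 6583, 4635 to 5943, 424 to 2815 and 113 to 1214. TMM, thinning to the smallest library and the definitions at 25 kb, 100 kb and all genes kept all 5 counts within 1.5 times.

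Same-numbered libraries did not deviate together (correlations from -0.36 to 0.24), and the replicate block gave 895, 6262, 5695, 704 and 331 calls. The read share over all far intergenic regions, a description because so many entered through WT stimulated libraries, differed between genotypes by -1.74 to -1.56 points without 1 library. The stimulation difference was 0.449 points at 25 kb and 0.495 with all genes, and ranged from 0.663 to 0.854 without 1 library.

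Of 63 values of named regions, 41 kept direction and call under every alternative other than leaving out a library, 55 in all 12 fits without 1 library, and 38 under all of these. The filters on all 12 libraries and on mean CPM were not checked for single regions. Loess scaling ended 12 calls and turned the sign of 2, OCR_22673 near Id2 in stimulated Treg (0.12) and OCR_28533 near Sox4 on stimulation of WT Treg (-0.01). Depth limits the weak regions most, whose fold changes had SE of up to 0.89 on the log2 scale.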
